A study of Mus musculus with 20 samples.

Results

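Liver transcripts were compared between NZO/HiBomDife mice (NZO), which the series describes as obese and susceptible to diabetes, and DBA/2J mice (DBA), described as lean and also susceptible. The comparison rests on the 8 arrays of these strains among the 20 arrays of the series, 4 of NZO and 4 of DBA. All mice were male and ate a diet with 45% fat, and no mouse on another diet was analysed here. One label gives 6 weeks as the age at which liver was taken and the design text gives week 6 of the high fat diet, so age and weeks of feeding are not settled. The other 3 strains, C57BL/6 (B6), C3HeB/FeJ (C3H) and 129P2/OlaHsd (129Ola), also with 4 mice each, enter the fit through a common estimate of the spread and are otherwise given only beside named genes. Each array carries an animal number in its label, read here as 1 mouse per array. NZO and DBA differ in obesity and across the genome at the same time, so with 1 strain of each kind these cannot be told apart, and body weight and blood glucose were not analysed here.

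NZO is a polygenic model in which overeating, insulin resistance and, in males, failure of the insulin-producing beta cells follow each other. The liver answers insulin by taking up glucose as glycogen and by making fatty acids, the latter through the transcription factor SREBP-1c. It answers growth hormone through STAT5 by making IGF-1 and by setting the male or female pattern of many cytochrome P450 and urinary protein genes. It is also the main site of drug metabolism, of bile acid synthesis and of complement production, and it houses the resident macrophages known as Kupffer cells.

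A level below is the log2 of the processed signal of a probe minus the 75th percentile of its array, so a level of 0 is the upper quartile of the array and a difference of 1 is a doubling of signal. Levels of different genes come from different probes and were not compared with each other. Values of single mice are given in the order NZO 3, 7, 9 and 11 and then DBA 5, 8, 9 and 15, after the animal numbers of the labels. Differences are NZO minus DBA with the standard error (SE) of the fit, and a gene was called when its limma p, adjusted by the Benjamini-Hochberg method over all genes tested, was below 0.05.

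Between 49.2 and 53.9% of probes were well above background on the NZO arrays and between 50.2 and 53.3% on the DBA arrays, and no spot was saturated. The 8 arrays lie on 4 slides scanned on 3 days, and 2 of the slides hold both strains: slide 2 has NZO 9, NZO 11 and DBA 9, and slide 3 has NZO 7 and DBA 5. NZO 7 and DBA 5 stood apart from their strain mates (Pearson correlation over genes of 0.979 to 0.983 for NZO 7 and 0.981 to 0.984 for DBA 5, against up to 0.991 and 0.994 among the others). Among the 9002 genes with a level of 0 or above, both of these arrays lay below the other 3 mice of their strain for 40.5% and above them for 4.82%. The slide and the 2 mice on it cannot be told apart, so several results that depend on slide 3 are given without it as well. The tissue label was checked on hepatocyte genes: albumin (Alb) had a level of 11.40 ± 0.03 in NZO and 11.28 ± 0.10 in DBA (mean ± SD, n = 4), and of 16 hepatocyte identity genes tested 1 was higher, 1 was lower and 14 did not pass the threshold.

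Of 14640 genes tested, 3039 (20.8%) were called, 1610 of them (11.0% of the genes tested) higher in NZO and 1429 (9.76%) lower. The larger number of higher calls depended on the scaling, since lower calls outnumbered them with the percentile taken over probes detected on all 8 arrays (1564 higher, 1765 lower), with quantile normalization (1557 and 1669) and in the authors' value table (1530 and 1588). An absolute difference of at least 1 was reached by 1111 called genes, 562 higher and 549 lower, and one of at least 3 by 135. For 2521 of the called genes no NZO mouse overlapped with any DBA mouse, and over all genes tested the share without overlap was 21.5%. Within both mixed slides the sign was the same as in the whole comparison for 3018 of the called genes (99.3%). The arrays of these slides were also used to call the genes, so much of this agreement was fixed by the selection and is no independent check. With slide as a block the count was 1884 genes (12.9%), of which 1709 were also called without the block, and without slide 3 it was 2770 genes, 2523 of them shared. The block was fitted over the 12 arrays of B6, NZO and DBA, and its strain difference rests on slides 2 and 3. Those hold NZO 7, 9 and 11 and DBA 5 and 9, so NZO 3, DBA 8 and DBA 15 add nothing to that difference. Calls lost with the block therefore also rest on fewer mice, and the cause of such losses was not tested.

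**Figure D1:**
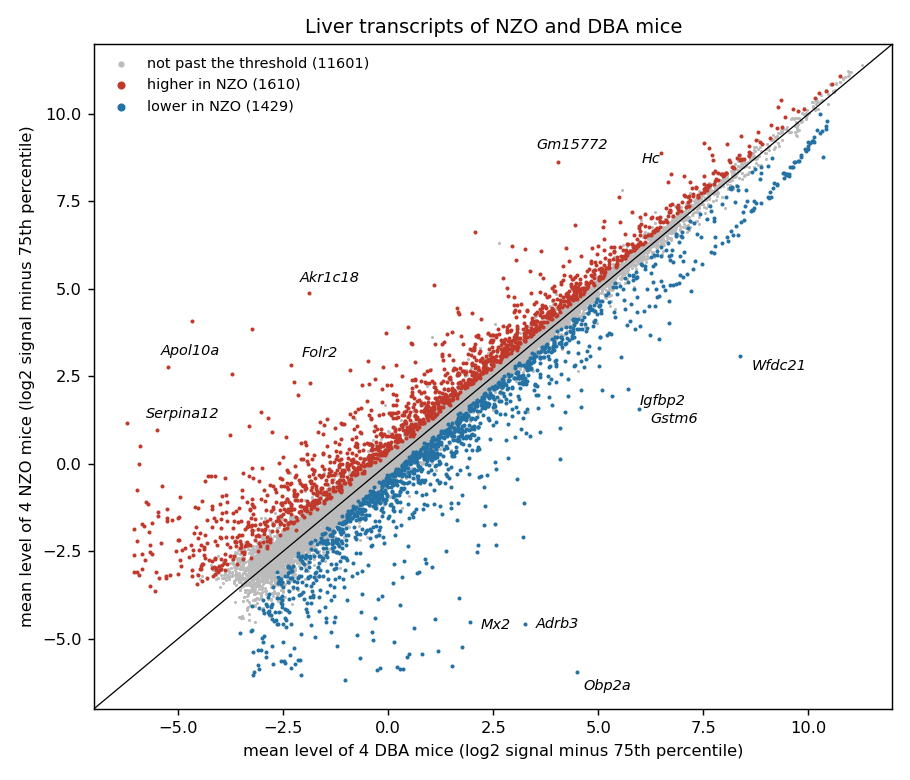
Mean level of the 4 NZO mice (vertical axis, log2 signal minus the 75th percentile of the array) against that of the 4 DBA mice (horizontal axis) for 14640 genes, with the line of equal levels. Red points are the 1610 genes higher in NZO, blue points the 1429 lower, grey points did not pass the threshold, and a band of blue points runs below the line at high levels.

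The insulin and IGF genes held some of the largest differences, in both directions. Igfbp2, which encodes a binding protein of insulin-like growth factors, had levels of 2.03, 2.68, 2.93 and 0.90 in NZO and of 5.34, 6.09, 5.84 and 5.60 in DBA. Every NZO mouse lay below every DBA mouse, and the difference of -3.58 ± 0.31 (SE, adjusted p = 7.9e-08) is a 12-fold lower signal in NZO. A second Igfbp2 probe gave -3.84. The means in B6 (5.63), C3H (4.88) and 129Ola (6.72) were on the side of DBA.

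Socs2, a growth hormone-induced inhibitor of STAT5 signalling, was higher in NZO, at 3.24, 3.30, 2.94 and 2.32 against -1.59, -0.80, 1.71 and -1.24 in DBA. The strains did not overlap, but DBA 9 lay well above its 3 strain mates, and the difference of 3.43 ± 0.77 (SE, adjusted p = 0.00307) was 4.89 within slide 3 and 0.92 within slide 2. With slide as a block its adjusted p was 0.0988, and without slide 3 the difference was 2.94 (adjusted p = 0.0322). Its other 2 probes gave 3.26 and 2.93. Igf1, the growth factor that the liver secretes under growth hormone, rose by a smaller and tighter margin, from 7.40, 7.23, 7.35 and 7.34 in DBA to 8.05, 7.92, 7.81 and 7.88 in NZO (difference 0.58 ± 0.10 SE, adjusted p = 0.000229). Grb10, an adaptor that restrains insulin and IGF receptors, was 4.08-fold higher in NZO (2.03 ± 0.30 SE, adjusted p = 6.24e-05), with DBA above background on 3 of 4 arrays. Trib3, an inhibitor of the kinase AKT that rises under stress, was 3.74-fold lower (-1.90 ± 0.29 SE, adjusted p = 8.6e-05).

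Serpina12 encodes vaspin, a secreted serpin known as an insulin-sensitizing adipokine. Its levels were 1.06, 0.88, 1.06 and 0.82 in NZO, whereas no DBA array was well above background (-5.95, -6.06, -4.21 and -5.77), which puts NZO at least 28.5-fold higher (adjusted p = 2.68e-10). B6 (-0.18) and C3H (0.45) also had the transcript above background on 4 of 4 arrays and 129Ola on none. Enpp1, an ectoenzyme known to inhibit the insulin receptor, had levels of -0.29, 0.09, -0.20 and -0.40 in DBA and was not well above background in any NZO mouse, but this rested on 1 probe. Its other probe, well above background on all 8 arrays, gave 0.37 with an adjusted p of 0.446 among probes, so the gene has no settled direction.

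Of 28 insulin and IGF signalling genes tested 28.6% were called, against 20.8% of all genes, and the median difference was -0.02 against 0.02. Among the 28, 5 were higher, 3 were lower and 20 did not pass the threshold. The receptor substrates were among those not past it, Irs1 with -0.34 ± 0.19 (SE) and Irs2 with 0.63 ± 0.23 (adjusted p = 0.0551, and 0.0351 with slide as a block). Igfbp1, an insulin-suppressed binding protein, ranged from 3.31 to 4.46 in NZO and from 4.24 to 5.88 in DBA, and overlapped. Dpp4, the peptidase that degrades GLP-1, differed by -0.04 ± 0.11 (SE), and the leptin receptor gene Lepr by 0.29 ± 0.39.

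Among genes of glucose and glycogen metabolism, 6 of 29 were higher, 3 were lower and 20 did not pass (31.0% called, against 20.8% of all genes, median 0.09). The lower ones included Ppp1r3b, a subunit that directs phosphatase to glycogen, and Ppargc1a, a coactivator of gluconeogenesis. Another Ppargc1a probe gave -0.57 with an adjusted p of 0.153 among probes. Ppp1r3b levels were 7.91, 7.21, 7.30 and 7.40 in NZO and 8.72, 8.93, 8.54 and 8.77 in DBA, with no overlap (-1.29 ± 0.17 SE, adjusted p = 1.47e-05). Pygl, the liver glycogen phosphorylase, went the other way, from 7.44, 7.62, 7.40 and 7.58 in DBA to 8.33, 8.05, 8.20 and 8.32 in NZO (0.72 ± 0.11 SE, adjusted p = 8.81e-05).

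The enzymes that release new glucose did not pass the threshold. Pck1 differed by -0.72 ± 0.29 (SE, adjusted p = 0.0891), with 4 of 4 NZO mice below the lowest DBA mouse, and it was called under 4 of 20 alternative settings (lowest adjusted p 0.0147). G6pc differed by -0.50 ± 0.51 (SE), with overlapping mice.

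**Figure D2:**
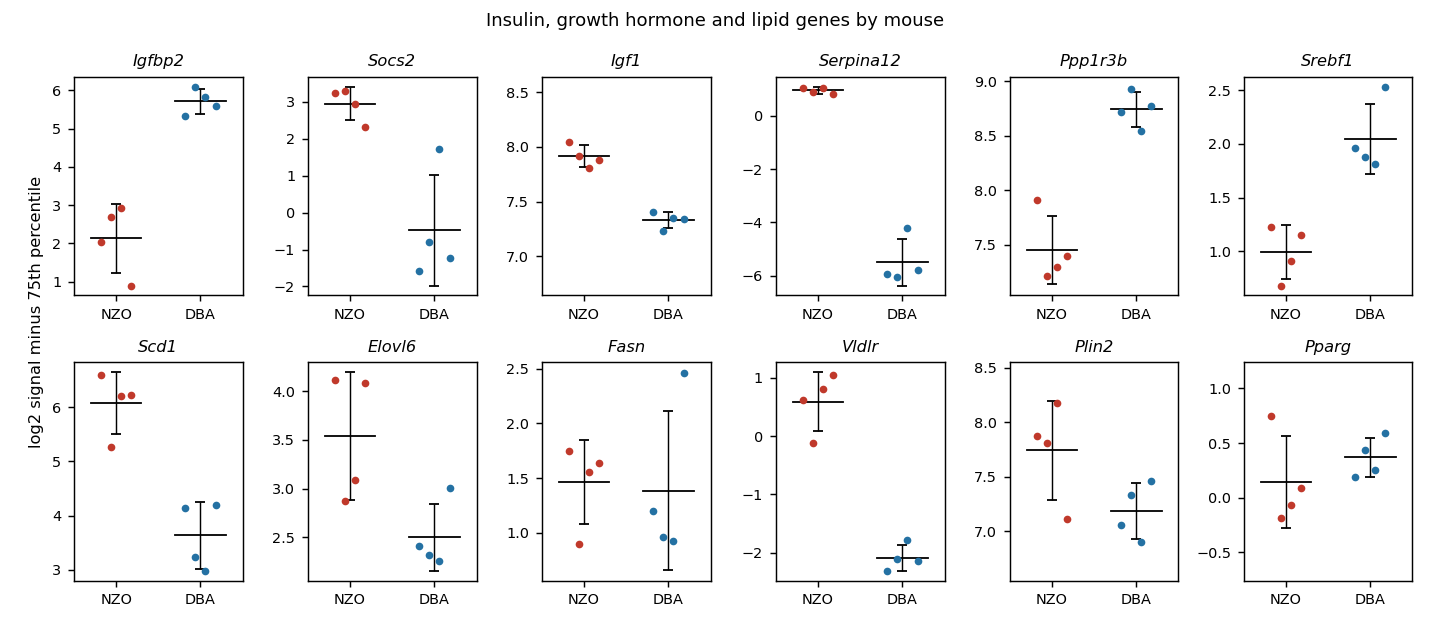
Level of 12 insulin, growth hormone and lipid genes in each mouse (vertical axes, log2 signal minus the 75th percentile, separate for each gene), with horizontal bars for strain means and whiskers for 1 SD of 4 mice. NZO and DBA mice separate for Igfbp2, Socs2, Igf1, Serpina12, Ppp1r3b, Srebf1, Scd1 and Vldlr, and overlap for Elovl6, Fasn, Plin2 and Pparg.

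In fatty acid synthesis the regulator gene and 1 of its enzymes differed in opposite directions. Srebf1, the gene of SREBP-1, was lower in NZO, at 1.23, 0.68, 0.91 and 1.15 against 1.96, 1.88, 1.81 and 2.53 in DBA (-1.06 ± 0.25 SE, adjusted p = 0.00467). Scd1, the desaturase that makes oleic acid, was higher, at 6.59, 5.26, 6.21 and 6.23 against 4.14, 3.24, 2.98 and 4.19. The mice of the strains did not overlap in either gene, and the Scd1 signal was 5.41-fold higher in NZO (2.44 ± 0.52 SE, adjusted p = 0.00214). Its difference was 3.24 within slide 2 and 1.12 within slide 3. The Scd1 means in B6 (6.16) and C3H (7.14) were above that of NZO (6.07), and 129Ola (4.33) lay between NZO and DBA (3.63).

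Acacb, the acetyl-CoA carboxylase at mitochondria, differed by 1.09 ± 0.31 (SE, adjusted p = 0.0168) and Elovl6, which elongates palmitate, by 1.04 ± 0.35 (SE, adjusted p = 0.0402). Both calls were fragile: that of Acacb was lost under 5 of 20 alternative settings and that of Elovl6 under 9, with highest adjusted p values of 0.195 and 0.179, in both cases with slide as a block. Fatty acid synthase (Fasn) had levels of 1.75, 0.90, 1.56 and 1.64 in NZO and 1.20, 0.96, 0.92 and 2.46 in DBA and did not differ beyond its spread (0.08 ± 0.43 SE, adjusted p = 0.931). The cytosolic carboxylase Acaca differed by 0.34 ± 0.20 (SE, adjusted p = 0.257). Of 25 genes of fatty acid and triglyceride synthesis 5 were higher, 1 was lower and 19 did not pass, with a median of 0.34.

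Of the lipid droplet and steatosis genes, 4 of 23 tested were higher, 1 was lower and 18 did not pass (median 0.23). Vldlr, a receptor that takes up triglyceride-rich particles, rose from -2.31, -2.10, -1.78 and -2.14 in DBA to 0.62, -0.12, 0.80 and 1.05 in NZO, a 6.36-fold higher signal (2.67 ± 0.22 SE, adjusted p = 4.09e-08). The other strains lay on both sides, with means of -2.37 in B6, -2.62 in C3H and 1.59 in 129Ola. Mogat1, an acyltransferase of triglyceride synthesis, was 2.67-fold higher in NZO (adjusted p = 0.00593), but it was well above background on only 2 DBA arrays and its call was lost with slide or scan day as a block (highest adjusted p 0.3). Abhd5, the coactivator of the lipase ATGL, was 1.55-fold higher (adjusted p = 0.0239), a call lost under 8 of 20 settings, among them without slide 3 (adjusted p = 0.164).

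Several genes known to rise with hepatic fat did not pass the threshold. Plin2, the coat protein of hepatocyte lipid droplets, had levels of 7.87, 7.81, 8.18 and 7.11 in NZO and 7.06, 7.33, 6.90 and 7.46 in DBA, so that NZO 11 lay within the DBA range and the other 3 NZO mice above it (0.56 ± 0.24 SE, adjusted p = 0.116). Without NZO 11 its adjusted p was 0.0255. Pparg differed by -0.22 ± 0.22 (SE), Cd36 by 0.29 ± 0.21, Cidec by 0.31 ± 0.24, Plin4 by 0.07 ± 0.41 and Fabp4 by -0.62 ± 0.23. Cidea was not well above background on all 4 arrays of either strain and was not tested. Fgf21, a hormone induced by fasting and by fat overload, spread more widely in NZO (0.40, 0.83, 1.04 and -1.53) than the difference between the strain means (0.54 ± 0.85 SE).

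Cholesterol synthesis and uptake genes included 4 of 25 that were higher, none that was lower, and 21 that did not pass, with a median of 0.40. They included Hsd17b7 and Sc5d, which act between squalene and cholesterol, and Acat2, which acts at the start of the pathway. Hsd17b7 was 2.13-fold higher, with levels of 3.69, 3.57, 3.66 and 3.26 in NZO and 2.32, 2.23, 2.47 and 2.80 in DBA (1.09 ± 0.17 SE, adjusted p = 0.000101). Its other probes gave 0.49 and 1.01, with adjusted p of 0.107 and 0.000312 among probes. Acat2 and Sc5d were 1.36 and 1.62-fold higher, and their calls were lost with slide as a block (adjusted p 0.0783 and 0.141).

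Among fatty acid oxidation genes the calls went both ways, with 3 of 41 genes higher, 4 lower, 34 not past the threshold and a median of -0.02. The thiolases of peroxisomal oxidation were lower in NZO, Acaa1a with a difference of -0.79 (adjusted p = 5.83e-05) and Acaa1b with -0.75 (adjusted p = 0.00079). Cpt1a, the gate of mitochondrial oxidation, differed by 0.36 ± 0.18 (SE) and Ppara, the receptor that drives the programme, by -0.35 ± 0.14, neither past the threshold. The shares called among genes of fatty acid synthesis (24%), lipid droplets (21.7%), cholesterol (16%) and fatty acid oxidation (17.1%) were near the 20.8% of all genes.

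Among the apolipoproteins and genes of VLDL assembly, 5 of 23 were higher and 2 were lower (30.4% called, against 20.8% of all genes). Scarb1, the hepatic HDL receptor, was 2.63-fold lower in NZO (3.45, 3.51, 3.39 and 3.17 against 4.58, 5.10, 4.88 and 4.55), and a second probe gave -1.28. NZO also lay below the means of B6 (4.72), C3H (4.52) and 129Ola (4.62). Pltp, which transfers phospholipid to HDL, was 1.85-fold higher, and Apom 1.42-fold higher. Apoa5, which promotes triglyceride clearance, was 2.00-fold higher, with DBA 5 (2.97) below the other DBA mice (4.10 to 4.41). Its adjusted p was 0.0556 with slide as a block, and without slide 3 the difference was 0.73 (adjusted p = 0.0232).

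Bile acid synthesis and transport held 4 of 26 genes that were higher and 6 that were lower (38.5% called, against 20.8% of all genes). Cyp39a1, a hydroxylase of oxysterols, had levels of -2.77, -2.87, -2.41 and -2.81 in NZO and 0.77, 1.19, 0.60 and 0.97 in DBA, 12.1-fold lower (adjusted p = 3.87e-07). Its means in the other 3 strains were higher still, from 2.59 to 3.43. Abcc3, a basolateral exporter of conjugated bile acids, was 3.66-fold lower in NZO, with 4 NZO mice within 2.38 to 2.46, and the exporter Abcc4 was 2.71-fold higher. The rate-limiting synthesis enzyme Cyp7a1 ranged from 1.95 to 3.33 in NZO and from 0.41 to 3.49 in DBA, and Cyp8b1 differed by 0.04 ± 0.25 (SE).

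Drug-metabolizing genes differed in both directions. Of 31 cytochrome P450 genes tested, 6 were higher and 14 were lower (64.5% called, against 20.8% of all genes), with a median of -0.23, and of 35 glutathione, glucuronosyl and sulfo transferases 5 were higher and 12 were lower (48.6%, median -0.13). These are families of similar genes whose probes may share sequence, and the sharing was not tested. One of the 14 lower P450 genes, Cyp2u1, belongs to a band of probes with a common profile that is described among the other observations.

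Cyp1a2, which metabolizes caffeine and aromatic amines, was 6.36-fold lower in NZO, at 3.82, 4.05, 4.24 and 3.95 against 6.72, 6.73, 6.61 and 6.68 in DBA (-2.67 ± 0.12 SE, adjusted p = 1.12e-11). DBA lay above all 4 other strain means here (B6 4.45, C3H 4.58, 129Ola 5.02). Cyp2c55 was 11.6-fold lower in NZO, where 3 of 4 arrays were above background, and Cyp2c37 7.98-fold lower, although a second Cyp2c37 probe gave only -0.87. The phenobarbital-inducible Cyp2b10 was 6.28-fold higher in NZO, at 1.23, 0.32, 1.92 and 0.98 against -1.85, -1.41, -2.37 and -0.51 (2.65 ± 0.64 SE, adjusted p = 0.00569). Its relative Cyp2b9 was well above background in 4 NZO mice and on no array of the other 4 strains, which puts NZO at least 4.77-fold above DBA.

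The largest differences among transferases were in the Gstm cluster of glutathione S-transferases on chromosome 3 (mouse build mm9, as in the array files). Gstm6 had levels of 1.46, 1.78, 1.72 and 1.37 in NZO and 6.03, 5.75, 5.77 and 6.34 in DBA, a 21-fold lower signal that 2 further probes repeated (-4.36 and -4.41). Gstm2 was 10.5-fold lower and Gstm3 5.62-fold lower, with a second Gstm3 probe at -7.23. In B6, C3H and 129Ola the means of Gstm6 were between 4.66 and 5.36, so NZO lay apart from all 4 other strains. Gsta2, an alpha-class transferase that NRF2 induces, was 5.40-fold lower in NZO.

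Genes with a sex bias in mouse liver, which follow the pattern of growth hormone secretion, were described because all mice were male. Of 15 female-biased genes tested, 5 were higher in NZO and 3 were lower (median 0.27), while 7 more were not above background and were not tested. Hao2, a peroxisomal hydroxyacid oxidase, had levels of 0.98, 0.74, 1.76 and 0.87 in NZO and was above background in 1 DBA mouse (-2.09, -3.67, -3.94 and -3.58). A1bg and Slc22a26 were well above background in 4 NZO mice and in no DBA mouse, at least 3.16-fold and 2.92-fold higher. Because a gene that enters the tests through NZO alone had to differ, the 10 female-biased genes above background on all 8 arrays were also counted: 1 was higher and 3 were lower, with a median of -0.27 (19.7% of all genes above background on all 8 arrays were called).

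Of 23 male-biased genes, 3 were higher in NZO and 5 were lower (34.8% called, against 20.8% of all genes, median -0.07). Susd4, a complement regulator, was 15.6-fold lower, with NZO 7 (0.85) above the other NZO mice (-0.16 to -0.01) and the DBA mice between 3.60 and 4.39. The lower signal of the urinary protein gene Mup20 rested on 1 probe, since a second one gave -0.02. Dhrs7 was 2.48-fold higher in NZO.

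Pericentral hepatocyte genes mark the zone around the central vein, and 38.9% of them were called, against 20.8% of all genes. Of 18 tested, 1 was higher and 6 were lower, with a median of -0.21. Besides Cyp1a2 these included Aldh1a1, which makes retinoic acid, 2.23-fold lower in NZO (8.19, 7.80, 7.86 and 8.25 against 9.11, 9.24, 9.20 and 9.17). The glutamate transporter gene Slc1a2 was 2.85-fold lower on its brightest probe, while its other 2 probes did not pass the threshold.

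**Figure D3:**
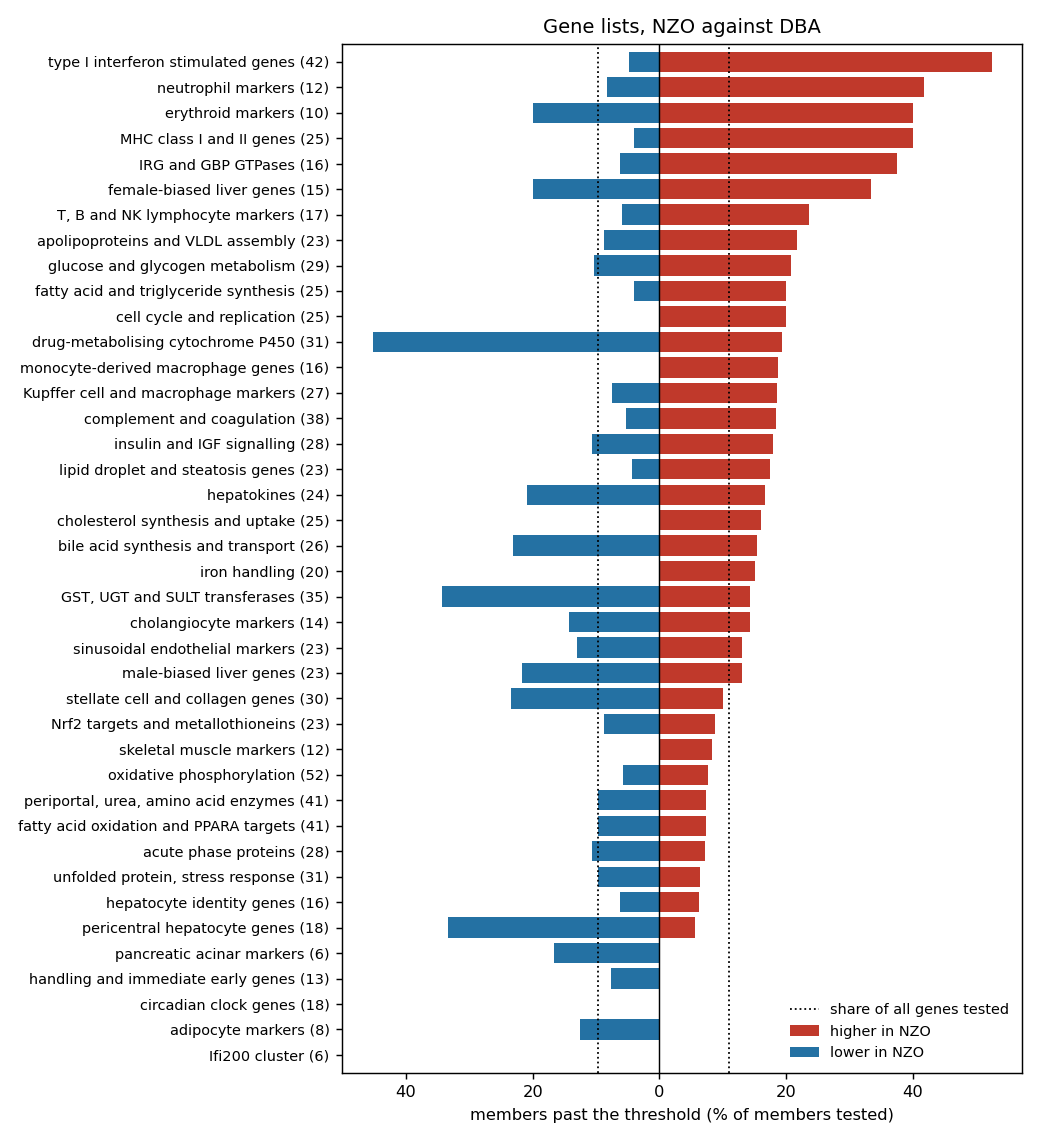
Share of the tested members of 40 gene lists that were called higher (red, to the right) or lower (blue, to the left) in NZO, in percent of the members tested, whose number follows each name. Dotted lines mark the shares over all genes tested, 11.0% higher and 9.76% lower, and the type I interferon list has the longest red bar with 22 of 42.

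Many interferon-stimulated genes were higher in NZO. Type I interferon switches on antiviral genes through a transcription factor complex that binds a DNA element with paired GAAA blocks in their promoters. Of 42 list genes tested, 22 were higher in NZO, 2 were lower and 18 did not pass (57.1% called, against 20.8% of all genes), with a median of 0.42 against 0.02 for all genes. Without slide 3 the counts were 21 and 2, and with slide as a block 14 and 2. The mean level over the list was 2.28 to 2.46 in the NZO mice and 2.06 to 2.24 in the DBA mice, without overlap.

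Promoters of 3 of the genes that were higher are shown because they carry the paired GAAA element, the textbook site of this complex. They hold the 250 bases before the start site from RefSeq, assembly GRCm38.p6, each on the strand of its gene, with each match to GAAA, any 2 bases and GAAA, or to the reverse complement, in capitals. Ifit1 is on chr19:34640639-34640888, plus strand, Rsad2 on chr12:26456453-26456702, minus strand, and Isg15 on chr4:156200819-156201068, minus strand. Rsad2 and Isg15 were picked after their values were seen.
Ifit1: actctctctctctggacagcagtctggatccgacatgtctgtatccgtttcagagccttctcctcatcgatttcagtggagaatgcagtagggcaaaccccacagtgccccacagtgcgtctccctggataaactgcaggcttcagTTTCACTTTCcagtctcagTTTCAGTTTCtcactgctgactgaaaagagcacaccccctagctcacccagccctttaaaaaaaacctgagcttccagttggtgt
Rsad2: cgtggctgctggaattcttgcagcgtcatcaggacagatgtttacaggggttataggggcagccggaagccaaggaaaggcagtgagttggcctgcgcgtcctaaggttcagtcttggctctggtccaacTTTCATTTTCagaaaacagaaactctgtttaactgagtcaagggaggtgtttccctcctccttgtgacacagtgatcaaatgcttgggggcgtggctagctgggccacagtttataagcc
Isg15: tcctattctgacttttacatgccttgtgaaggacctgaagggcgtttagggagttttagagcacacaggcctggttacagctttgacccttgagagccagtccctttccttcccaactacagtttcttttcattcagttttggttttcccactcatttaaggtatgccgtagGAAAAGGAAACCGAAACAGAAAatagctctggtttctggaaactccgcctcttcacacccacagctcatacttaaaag
Ifit1 has 2 matches, starting at positions -104 and -85 from the start site, Rsad2 has 1, and Isg15 has 3 that overlap. The motif was searched on both strands in these 250 bases. Another promoter that was looked up in the same way held 0 matches and is not shown. Of 28 list genes with a promoter in the table, 9 (32.1%) held it, against 3.3% of 11149 genes tested and 3.0% of all 32851 promoters in the table. The list genes that were higher in NZO and the others held it at similar rates, 5 of 16 (31.2%) and 4 of 12 (33.3%). A match describes these letters only and does not show binding.

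Ifit1, which blocks translation of viral RNA, had levels of 2.47, 1.87, 2.06 and 2.56 in NZO and 0.19, -0.04, 0.04 and 0.09 in DBA, 4.51-fold higher in NZO (2.17 ± 0.20 SE, adjusted p = 1.73e-07). Rsad2, which encodes the antiviral enzyme viperin, stood at 3.15, 2.79, 2.82 and 3.12 in NZO and 1.84, 1.50, 1.22 and 1.60 in DBA (1.43 ± 0.22 SE, adjusted p = 0.000101). Isg15, a ubiquitin-like modifier, stood at 6.16, 6.07, 6.10 and 6.06 against 5.30, 4.97, 4.92 and 5.36 (0.96 ± 0.15 SE, adjusted p = 0.000123). Mx1, Mx2 and Usp18 have no entry in the promoter table. In all 3 genes above every NZO mouse was above every DBA mouse.

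Mx1, an antiviral GTPase that many laboratory strains carry in a defective form, had 2.30, 2.33, 2.20 and 2.32 in NZO and -0.40, -0.47, -0.41 and -0.50 in DBA. The spread within each strain was small against the difference of 2.73 ± 0.30 (SE, adjusted p = 2.01e-06), and the means in B6 (-0.28), C3H (-1.35) and 129Ola (-1.88) were below NZO as well. Its neighbour Mx2 went the other way: it was 2.16, 1.80, 2.12 and 1.74 in DBA and well above background in 1 of 4 NZO mice (-5.22, -4.91, -3.47 and -4.47). B6, C3H and 129Ola had Mx2 means of 1.47 to 1.66, close to DBA. The second lower member, Ifi27l2b, was not well above background in any NZO mouse, so its signal was at least 16.8-fold lower in NZO on that probe, while a second probe gave -1.28.

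**Figure D4:**
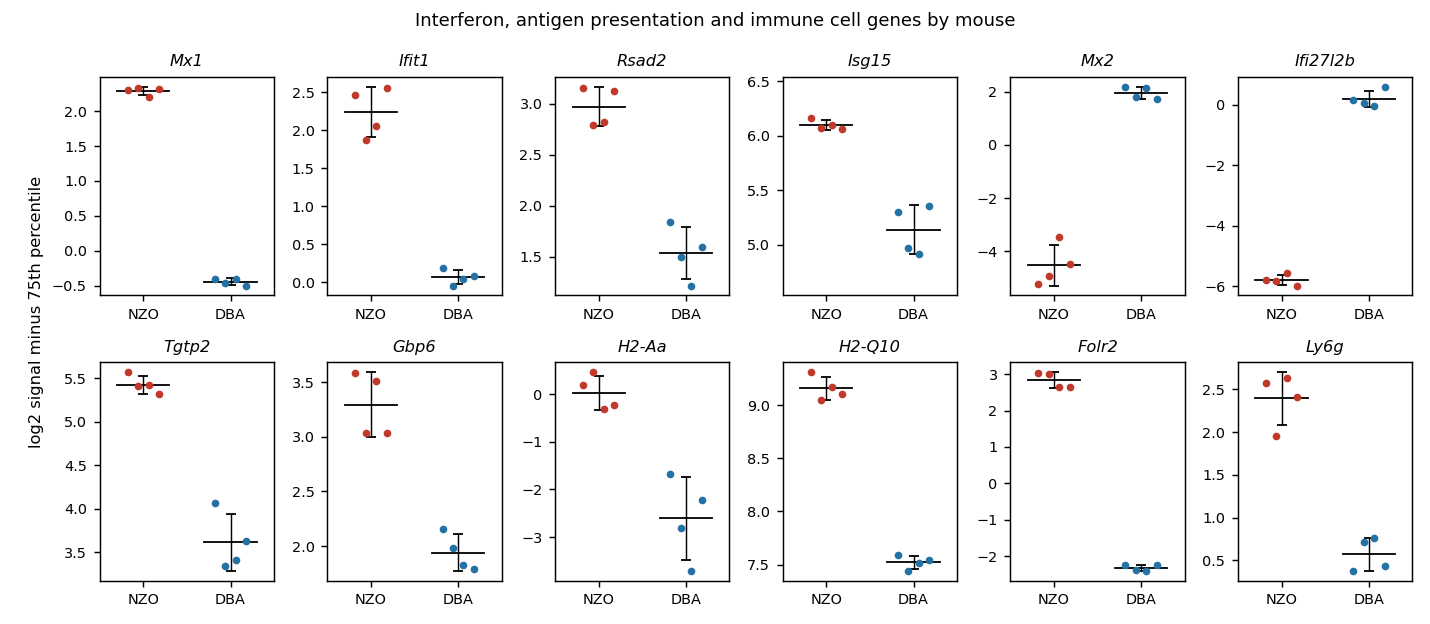
Level of 12 interferon, antigen presentation and immune cell genes in each mouse (vertical axes, log2 signal minus the 75th percentile, separate for each gene), with horizontal bars for strain means and whiskers for 1 SD of 4 mice. NZO mice are above DBA mice in 10 of the 12 panels and below them for Mx2 and Ifi27l2b.

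The immunity-related GTPases and guanylate binding proteins attack vacuoles of intracellular pathogens and rise under interferon gamma. Of 16 tested, 6 were higher and 1 was lower (43.8% called, against 20.8% of all genes), with a median of 0.47. Tgtp2 had levels of 5.57, 5.41, 5.42 and 5.32 in NZO and 4.07, 3.35, 3.41 and 3.63 in DBA (3.53-fold, adjusted p = 5.88e-05), and Gbp6 was 2.55-fold higher. Gbp8 was 3.65-fold lower in NZO, with 2 of 4 NZO arrays above background, and its call was lost with slide or scan day as a block and with another background correction (highest adjusted p 0.117). None of 6 genes of the Ifi200 cluster on chromosome 1 passed the limma threshold, and 1 had an unadjusted p below 0.05.

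Of 25 MHC class I and II genes, 10 were higher in NZO and 1 was lower (44.0% called, against 20.8% of all genes), with a median of 0.29. H2-Q10, a secreted class I protein of the liver, had levels of 9.31, 9.05, 9.17 and 9.11 in NZO and 7.59, 7.44, 7.51 and 7.54 in DBA (3.12-fold, adjusted p = 4.88e-08), and its second probe gave 1.75. H2-Aa, a class II chain, was 6.20-fold higher (0.19, 0.46, -0.30 and -0.23 against -1.68, -2.81, -3.71 and -2.22), while H2-Ab1, its partner chain, was the member that was lower (-1.14 ± 0.29 SE, adjusted p = 0.00916, and 0.251 with slide as a block). H2-Ab1 was picked after its value was seen. MHC genes are polymorphic between strains, and whether alleles change the fit of these probes was not tested.

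Kupffer cell and macrophage markers went in both directions: 5 of 27 were higher, 2 were lower, 20 did not pass, and the median was 0.08. Single markers differed widely. Folr2, a folate receptor of resident macrophages, had levels of 3.03, 3.01, 2.66 and 2.66 in NZO and -2.24, -2.39, -2.40 and -2.25 in DBA, a 35.7-fold higher signal (5.16 ± 0.17 SE, adjusted p = 1.86e-13). B6 (2.61) and 129Ola (2.45) resembled NZO, and C3H (-1.85) resembled DBA. Cd207, the lectin langerin, was 0.61, 0.91, 1.08 and 0.67 in DBA and not well above background in any NZO mouse, at least 25.6-fold lower. Siglec1, a sialic acid receptor of macrophages, was 2.60-fold lower in NZO, and Il18bp, the decoy of interleukin 18, was 2.97-fold higher. In bulk liver, fewer cells of a type and less RNA per cell cannot be told apart. The share called was 25.9% here, against 20.8% of all genes.

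Among genes of monocyte-derived and lipid-associated macrophages 3 of 16 were higher and none was lower (18.8% called, against 20.8% of all genes). They were Cd52, Fabp5 and Spp1, by 2.68, 2.34 and 2.07-fold, the last 2 with adjusted p of 0.185 and 0.0679 with slide as a block. Without slide 3 the adjusted p of Fabp5 was 0.101. Trem2, the receptor that defines these cells, differed by 0.49 ± 0.36 (SE) and was not past the threshold, and Gpnmb was not above background.

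Of 12 neutrophil markers tested 5 were higher and 1 was lower, against 11.0% and 9.76% of all genes, with a median of 1.16. With slide as a block 3 were higher and none was lower, with a median of 0.68, and the median within slide 2 was 0.51. Some markers entered the tests through NZO alone, and of the 8 above background on all 8 arrays 3 were higher and 1 was lower, with a median of 0.77. The mean over these markers was 0.37 to 0.63 in the NZO mice and -0.70 to -0.23 in the DBA mice. Ly6g, the antigen used to identify neutrophils, was 2.58, 1.96, 2.63 and 2.41 in NZO and 0.38, 0.72, 0.76 and 0.43 in DBA (3.53-fold, adjusted p = 9.18e-08), and Camp, a granule peptide, was 4.87-fold higher (adjusted p = 0.0932 with slide as a block). The lower one was Lcn2, which hepatocytes also make in the acute phase, and its call was lost under 10 of 20 settings, among them without slide 3 (adjusted p = 0.0613).

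Of 17 lymphocyte markers, 4 were higher and 1 was lower (29.4% called, against 20.8% of all genes). Klrd1 is a receptor chain of natural killer cells that DBA/2J mice are known to lack. It was well above background in 4 NZO mice and no DBA mouse, with a low bound of 1.63-fold. Klrd1 was also above background on 4 B6 arrays but on 0 arrays of C3H and 0 of 129Ola. Of the 15 lymphocyte markers above background on all 8 arrays, 3 were higher and 1 was lower. Gzma, a granule protease, was 2.90-fold higher in NZO. Of 30 stellate cell and collagen genes 3 were higher and 7 were lower (33.3% called). Col1a1, the main fibrillar collagen, was 2.14-fold higher, and Pdgfrb and Reln were 1.80-fold and 1.94-fold lower. Sinusoidal endothelial markers had 3 of 23 higher and 3 lower (26.1% called), led by Mmrn2, 2.64-fold lower in NZO.

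Signals of tissues other than liver were also examined. The skeletal muscle list had 1 of 12 tested genes higher, and its mean was 1.51 in NZO 7 but -2.53 to -1.83 in the other NZO mice and -1.35 to -0.25 in the DBA mice. Acta1, the actin of skeletal muscle, reached 2.99 in NZO 7, while NZO 3, NZO 9 and NZO 11 ranged from -3.93 to -2.76. Within slide 3 the median of the muscle list was 3.12, and without that slide 5 of its genes were lower in NZO. Of 10 erythroid genes 4 were higher and 2 were lower (60.0% called, against 20.8% of all genes). Without slide 3 these counts were 6 and 1, and with slide as a block 0 and 1. The alpha globin gene Hba-a1 was 8.43 in DBA 5 and 6.11 to 7.09 in the other DBA mice, against 7.83 to 8.78 in NZO. The calls of Hba-a1 and Hba-a2, both higher in NZO, were lost under 7 and 9 of 20 settings. Without slide 3 their differences were 1.61 and 1.26 (adjusted p = 0.000475 and 0.000361), whereas within slide 3 they were -0.16 and -0.13. The erythroid genes called lower were Hbb-b2 and Klf1. The beta globin gene Hbb-b2 (-1.22 ± 0.36 SE, adjusted p = 0.0198, and 0.0751 without slide 3) was highest in DBA 5 at 7.11. Klf1, an erythroid transcription factor (-1.50 ± 0.22 SE, adjusted p = 5.97e-05), was lowest among DBA mice in DBA 5 at -0.74. The adipocyte genes Adipoq, Plin1 and Lep were not tested, because neither strain had them above background on all arrays, and of 8 adipocyte markers tested only Adrb3 was called.

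Among plasma proteins, 7 of 38 complement and coagulation genes were higher and 2 were lower, 23.7% called and so near the 20.8% of all genes, and with slide as a block 2 were higher and 1 was lower. Hc, complement component C5, for which DBA/2J is a known deficient strain, had levels of 6.50, 6.74, 6.95 and 6.70 in DBA and 8.27, 8.19, 8.35 and 8.33 in NZO (2.95-fold, adjusted p = 3.24e-09), and B6, C3H and 129Ola had means of 8.77 to 8.88. C6 was 2.07-fold lower in NZO. Orm3, an acute phase glycoprotein, was 14.5-fold lower in NZO, at -2.50, -2.37, -2.69 and -2.39 against 1.04, 1.78, 1.32 and 1.33, while 23 of 28 acute phase genes did not pass the threshold.

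Hepcidin (Hamp), the hormone that limits iron uptake, did not reach the threshold (3.68 ± 1.30 SE, adjusted p = 0.0536). Its levels were 6.44, 6.21, 6.91 and 5.69 in NZO and -3.54, 4.40, 6.00 and 3.70 in DBA. DBA 5 lay far below the other 7 mice, and DBA 9 lay within the NZO range. Without DBA 5 the difference was 1.61 with an adjusted p of 0.037. Hamp was also called without DBA 8, without DBA 9 and with another background correction. It was not called without slide 3 (adjusted p = 0.0601) or with slide as a block (0.204), and its difference within slide 2 was 0.3. The ferritin light chain gene Ftl1 was 2.08-fold higher in NZO without overlap (adjusted p = 9.39e-08).

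Of 25 cell cycle genes 5 were higher and none was lower, 20% called and so near the 20.8% of all genes, and with slide as a block 2 were higher. Mcm6, a subunit of the replicative helicase, was tight in NZO (3.43, 3.35, 3.39 and 3.50) and spread in DBA (1.96, 0.41, 0.62 and 1.45), 4.94-fold higher in NZO, and Cdc20, an activator of the anaphase complex, was 2.73-fold higher. None of 18 circadian clock genes tested was called by limma, and 0 had an unadjusted p below 0.05, while 2 were called lower when slide was a block. Of 52 oxidative phosphorylation genes 4 were higher and 3 were lower, 13.5% called against 20.8% of all genes.

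The largest difference among genes well above background on all 8 arrays was that of Akr1c18, which encodes a hydroxysteroid dehydrogenase that inactivates progesterone (probe at chr13:4131895-4131954, mm9). Its levels were 5.01, 4.77, 5.04 and 4.71 in NZO and -1.45, -2.24, -1.79 and -2.09 in DBA, a 109-fold higher signal (6.77 ± 0.40 SE, adjusted p = 5.96e-10). The other strain means, -0.78 in B6, -3.16 in C3H and -3.23 in 129Ola, were also far below NZO. Abcb1b, a multidrug exporter (chr5:8865925-8865984), was 22.8-fold higher in NZO, with a mean of 1.48 against -3.03 in DBA, -3.15 in B6, -4.21 in C3H and 0.50 in 129Ola. Cyp3a41b, a P450 known as female-biased, was 23.6-fold higher, with DBA 15 (3.91) apart from the other DBA mice (1.37 to 1.52). Ly6a, the surface antigen Sca-1, was 16.3-fold higher, and so was Tiam2 by 17.3-fold, Mirg, a non-coding transcript of the imprinted Dlk1-Meg3 region, by 18-fold and the predicted gene Gm15772 by 24.1-fold. Trim34a (4.58) and Dnm1 (4.17) were supported less well, because their second probes gave 0.91 and 0.23.

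In the other direction the largest were Serpina3i (chr12:105504738-105504797), of the serpin cluster, and Wfdc21 (chr11:83566028-83566087), a small secreted protein. Wfdc21 was 2.78, 3.21, 2.90 and 3.43 in NZO and 8.31, 8.49, 8.36 and 8.37 in DBA, 39.4-fold lower (-5.30 ± 0.14 SE, adjusted p = 1.58e-14), and the other 3 strains lay with DBA (8.32 to 8.96). Serpina3i was 39.7-fold lower in NZO, with B6 (-1.56) and C3H (-2.57) near NZO and 129Ola (1.94) nearer DBA. Ctse, an aspartic protease, was 25.0-fold lower, Capn3, a calpain, 22.2-fold, D630033O11Rik 20.5-fold, the calcium-binding protein gene Cib3 19.3-fold, Gm10734 16.4-fold and Ncmap 15.8-fold.

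Some genes were well above background in every mouse of one strain and in none of the other, 72 in NZO and 73 in DBA. Of the 72, 5 were above background in all mice of the other 3 strains and 13 in none of them, and of the 73 these counts were 12 and 10. Every C3H and 129Ola array had a smaller share of probes well above background than any NZO or DBA array. How far this enters these counts, or array counts given for C3H and 129Ola elsewhere, was not tested. Apol10a, an apolipoprotein L family member (chr15:77320890-77320949), was 2.64, 3.16, 3.04 and 2.20 in NZO, at least 99.6-fold above DBA. The transcript 5830417I10Rik was at least 33.2-fold higher in NZO and was above background on all arrays of the other 3 strains. Cd209b, a C-type lectin of sinusoidal and marginal zone cells, was at least 10.8-fold higher in NZO, Klk1b26 10.3-fold, 4933409K07Rik 14.6-fold and Tcf24 9.56-fold.

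Obp2a, an odorant-binding lipocalin (chr2:25557738-25557797), was the extreme in the other direction, at 3.26, 5.04, 3.31 and 6.32 in DBA and not well above background in NZO, at least 326-fold lower. DBA also exceeded the means of B6 (-2.90), C3H (-0.99) and 129Ola (-2.75). Adrb3, the adrenoceptor of adipocytes, was 3.02, 3.47, 3.48 and 3.08 in DBA and at least 140-fold lower in NZO, and a second probe gave -4.73. Pole4, a subunit of DNA polymerase epsilon, and the polymerase gene Poln were at least 33.4-fold and 31.1-fold lower in NZO, Gm5067 41.9-fold and 4933438K21Rik 22.5-fold. For 4930581F22Rik the bound of 49.1-fold rested on 1 probe, and another gave -0.19. No probe sequence was set against the strain genomes, so the share of such differences that comes from alleles under a probe was not tested.

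**Figure D5:**
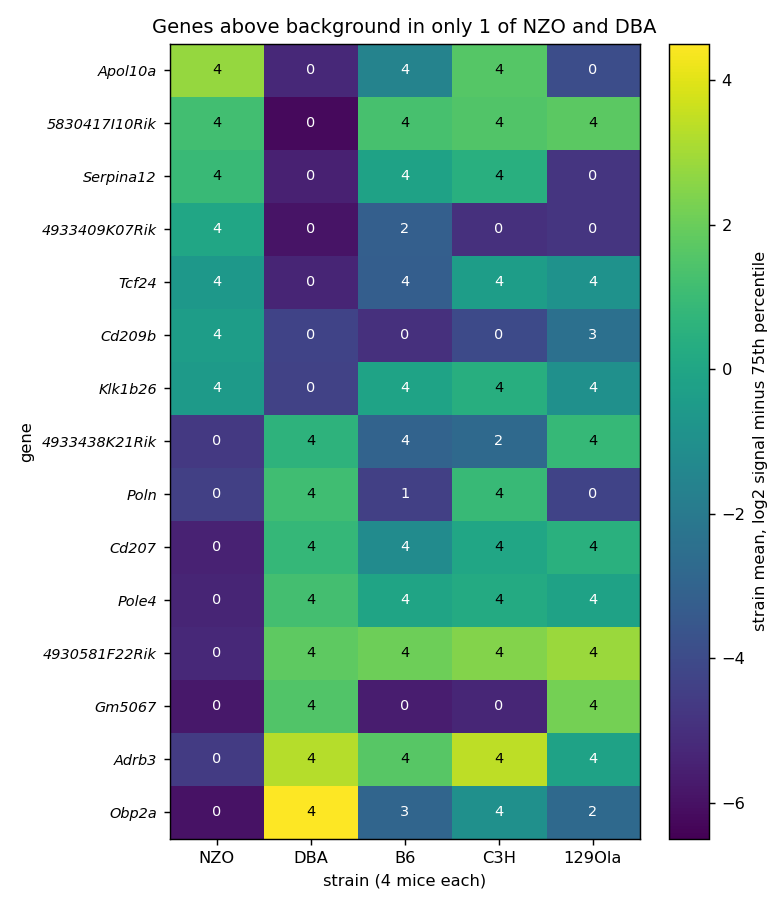
Mean level in 5 strains (colour, log2 signal minus the 75th percentile) of 15 genes with large lower bounds of the fold among those above background in only 1 of NZO and DBA. The number in each cell is how many of 4 arrays were well above background, and 5830417I10Rik has 0 in DBA and 4 in each of the other strains.

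Large differences clustered in some gene families. The mm9 interval of 5 Mb with the most called genes that differed by at least 2 was that on chromosome 7 from 50000001 to 55000000, with 10 of 121 genes against 2.36% of all mapped genes. It holds the glandular kallikreins, of which 8 of 10 tested were higher in NZO, by 2.12 to 3.96, and none was lower. The kallikreins are near-identical copies, so their probes cannot be taken as independent. Next came an interval of chromosome 11 from 65000001 to 70000000 with 6 of 80 genes. The intervals with the Gstm cluster on chromosome 3 (5 of 53 genes), the Serpina3 cluster on chromosome 12 (5 of 38) and the Cyp3a cluster on chromosome 5 (5 of 49) followed. An interval on chromosome 9 had 5 of 30 genes. The intervals on chromosome 10 (5 of 97) and with Apol10a on chromosome 15 (5 of 130) had the same count among more genes tested. Intervals were ranked by this count and not by the share of genes tested, so the ranking is a description only. Gstm2, Gstm3 and Gstm6 were all lower in NZO, whereas the Cyp3a and Serpina clusters had members in both directions. Across chromosomes the share of called genes ran from 13.5% on X to 23.9% on chromosome 14.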

How the data were processed

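Total liver RNA was labelled with Cy3 on 1-colour Agilent arrays, 1 per mouse. The deposited processed signal is an intensity, spatially detrended and background-subtracted by Feature Extraction 11.0.1.1 (NZO, DBA, B6) or 11.5.1.1 (129Ola, C3H), per the file headers, while the submitters' processing notes name 9.1. Control spots were left out of the 62976 spots. Other flag columns, per the file headers, gave background and saturation. Genes needed a probe well above background on all 4 arrays of either strain, and the brightest such probe stood for a gene. The log2 signal of the deposited intensities minus the 75th percentile of each array was fitted in limma 3.58.1 (R 4.3.3) with 5 strain means over 20 arrays and 15 residual degrees of freedom (17.4 after moderation). The script was tested on simulated data. The number of arrays limits the precision, and each p-value sets a difference against the spread between mice within the 5 strains.

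Where no array of a strain was above background, the bound sets the mean of the bright strain against, per array of the dim strain, the dim probe's own signal or the lowest signal that was well above background, whichever was higher. Named genes are the 10 largest differences each way among genes above background on all 8 arrays without overlap, the 8 largest bounds each way, up to 4 called members per list, and a list of obesity, steatosis and insulin genes. Rsad2, Isg15, H2-Ab1, Alb, Acta1, Cyp2u1, Epha5 and the kallikreins were chosen after their values were seen. Some genes that meet these rules are not reported here. Members and lists were chosen with earlier results of these data known.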

Additional observations from a re-analysis of the deposited data

Results flagged for a closer look

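In 18 of 360 groups of 4 mice, 1 mouse stood apart from the other 3 by more than Dixon's critical share of the group's range. Chance flags about 1 in 20 groups, so this number is close to what chance gives.

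Among genes above background in the group concerned, Cyp3a41b was 3.91 in DBA 15, with its strain mates at 1.37 to 1.52, and Gstm3 was 5.37 in the same mouse against 4.26 to 4.42. Fgf21 was 0.04 in DBA 15 against -0.51 to -0.45. Lcn2 was 1.21 in DBA 9 against 2.05 to 2.17, Ppara 6.54 in DBA 8 against 6.15 to 6.20, and Poln 0.77 in DBA 5 against 1.20 to 1.26. In NZO, Susd4 was 0.85 in NZO 7 against -0.16 to -0.01 and C6 4.02 in NZO 9 against 4.41 to 4.49. The muscle actin gene Acta1 was 2.99 in NZO 7 against -3.93 to -2.76.

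Serpina12 (-4.21 in DBA 9 against -6.06 to -5.77), Apol10a (-6.27 in DBA 9 against -4.96 to -4.77) and Obp2a (-6.15 in NZO 9 against -5.90 to -5.86) were not well above background in these groups. Among means over gene lists, the apolipoprotein list was 6.61 in NZO 3 against 6.40 to 6.43, the male-biased list 7.31 in DBA 8 against 7.11 to 7.14, and the Ifi200 cluster -0.95 in NZO 3 against -0.67 to -0.65. The cholangiocyte list was -0.34 in DBA 8 against -0.03 to 0.03, and the clock list 0.99 in NZO 7 against 1.20 to 1.24. The iron handling list was 3.93 in DBA 5 against 4.67 to 4.79. DBA 5 is the mouse with the low Hamp signal, and no mean of the list without Hamp was taken, so these are not separate observations.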

How the results depend on the processing

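The counts of called, higher and lower genes stayed within 1.5 times the main counts except with slide or scan day as a block over the 12 arrays of B6, NZO and DBA. Slide as a block gave 1884 called genes, 973 higher and 911 lower, and scan day gave 2112, of which 932 were lower. The other alternatives gave 2336 to 3329 called genes. Leaving out 1 mouse at a time gave 2549 to 3105. Of 116 called genes named in the text, 96 kept call and direction under all 20 alternatives and 20 lost the call somewhere, 18 of them with slide as a block. The exception in direction was Enpp1, which was 0.37 (adjusted p = 0.444) when a probe had to be above background on all 8 arrays, since its other probe then stood for the gene. Of the named genes not called, 7 were called under some alternative. The medians of 15 of 40 lists moved by more than the SD between mice under some alternative. Leaving out slide 3 was added after seeing the data and gave 2770. Apart from Enpp1, the causes were not tested. No paired analysis was possible because NZO and DBA share only the animal number 9, and slides were used as blocks instead. Genes below background in both strains were not tested, and diet effects cannot be read from mice on 1 diet.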

Other observations

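A band of genes with high signal and a common profile was seen in the plot of strain means. Taking Epha5, a receptor tyrosine kinase of developing neurons, as the seed after its values were seen, 61 genes with the seed followed it with a correlation of at least 0.95 over the 20 arrays and at least 0.8 within strains. The Epha5 signal was 6.95 to 7.80 in NZO, 8.55 to 8.77 in DBA, 6.67 to 7.30 in B6, 6.00 to 6.45 in C3H and 7.22 to 7.90 in 129Ola, and NZO was lower than DBA by -1.44 ± 0.18 (SE, limma adjusted p = 1.18e-05).

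All 61 genes were called lower in NZO (4.27% of the lower calls), with differences of -1.75 to -0.64. Because the genes were chosen by their common profile, this count is a description and supports nothing. Another tested probe existed for 23 of them, 38 probes in all, of which 3 were past the threshold and lower, with a median of -0.12. The band therefore differed between probes of the same genes, and its cause was not tested. Cyp2u1 was the 1 member in the gene lists, among the P450 and the male-biased genes.

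Of the 3039 called genes, the B6 mean was nearer to NZO for 1381 and nearer to DBA for 1658. For C3H these numbers were 1370 and 1669, and for 129Ola 1448 and 1591. The 4 NZO mice lay outside the range of the other 16 mice for 578 called genes and the 4 DBA mice for 470. All these counts mix strain with batch, since C3H and 129Ola lie on slides and days of their own.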
